A study of Mus musculus with 4 samples.

Results

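A set of 40 genes that mark granulosa, cumulus and theca cells, the cumulus layer as it expands, or ovarian stroma was looked up by name in RNA-seq of cultured mouse oocytes, and 36 of the 40 had a row in the table of 26631 genes. The other 4, Nr5a1, Inhbb, Amh and Tagln, have no row in the table used here. No row of that table is at 0 in all 4 libraries, so these genes may have had no reads, which was not tested. The libraries came from denuded oocytes, that is oocytes stripped of their cumulus cells, of wild type C57BL/6 mice at postnatal day 24. One pair of libraries was from oocytes exposed to HDACi 4b, an inhibitor that acts on the histone deacetylases HDAC1 and HDAC3, and the other pair was from oocytes exposed to its vehicle DMSO (n = 2 each). The question of the comparison was whether the inhibitor acts on the oocyte itself, apart from the somatic cells around it. The methods of the study call this comparison single-cell RNA-seq, with RNA extracted from a number of oocytes given per group. They do not say how those oocytes were divided between libraries. The results of the study speak of mature oocytes. The labels describe RNA extraction from ovaries although they give denuded oocytes as the cell type. They do not state whether replicates were separate animals or cultures, so a p-value here reflects the spread among 4 libraries and that spread may be technical.

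An oocyte grows inside a shell of granulosa cells, and the innermost of these, the cumulus cells, touch it through fine projections. Granulosa cells carry the receptor of follicle stimulating hormone, convert androgens made by theca cells into estrogens, and secrete inhibin, KIT ligand and C-type natriuretic peptide. The oocyte answers with secreted factors such as GDF9 and BMP15, which set the behavior of the cumulus layer and its expansion before ovulation.

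By level the set split into 5 genes at or over 1 RPKM and 31 under it, of which 14 had at most 10 settled reads in all. Serpine2, Esr2, Cyp19a1, Nr5a2 and Kitl averaged 1 RPKM or more across the libraries (reads normalized to exon length and library size, as deposited). The remaining 31, or 86.1% of the members with a row, lay under that limit, against 64.5% of all rows of the table. Of these 31 genes, 24 lay under 0.1 RPKM and 7 between 0.1 and 1 RPKM. The member just above the limit was Kitl with a mean of 1.85 RPKM, and the member just below it was Dcn with 0.634 RPKM. The limit was a choice, and a limit of 0.5 RPKM would have kept 6 members and one of 2 RPKM would have kept 4.

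**Figure D1:**
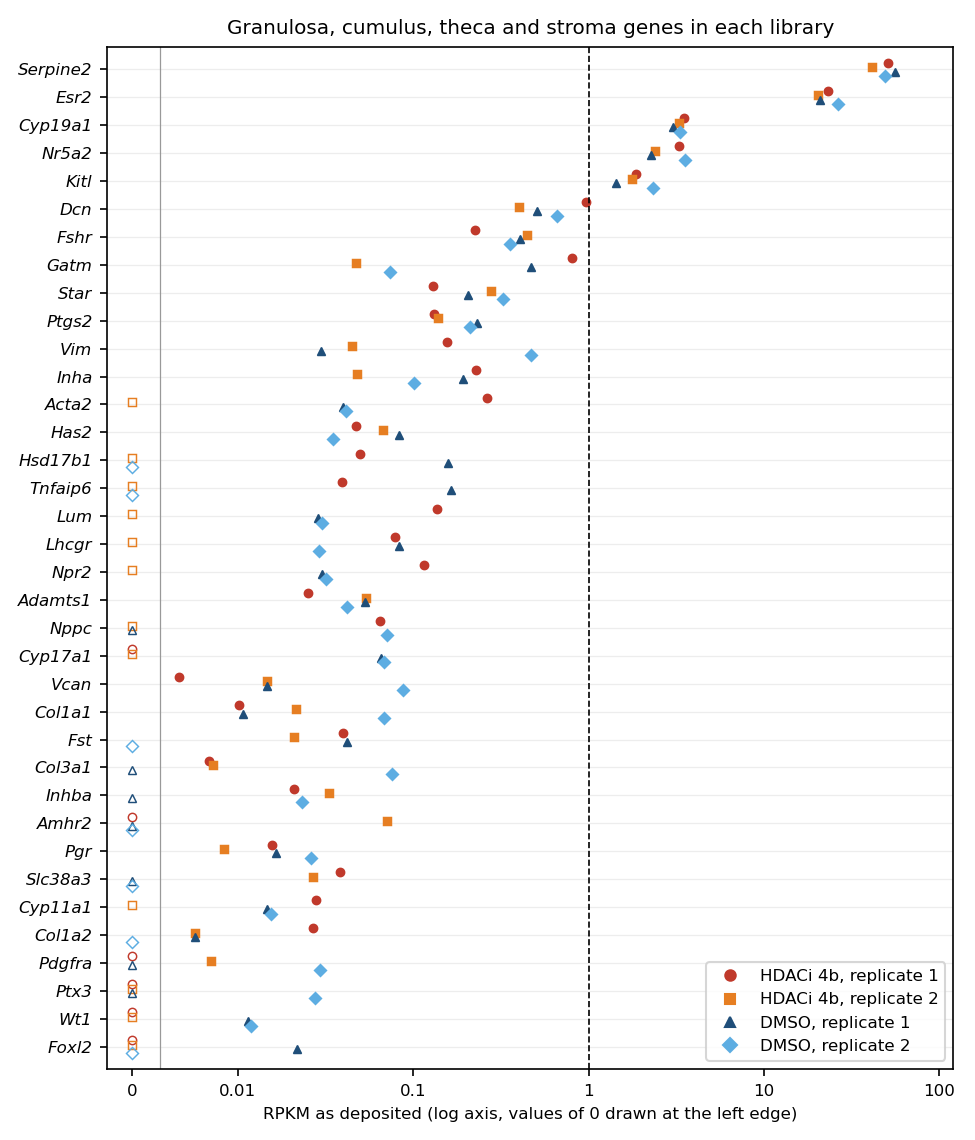
RPKM of the 36 members with a row (vertical, ordered by mean level) in each of the 4 libraries, on a log axis with values of 0 as open symbols at the left edge and the limit of 1 RPKM as a dashed line. Serpine2, Esr2, Cyp19a1, Nr5a2 and Kitl lie right of the line in all 4 libraries, while 19 of the other 31 are listed at 0 in at least 1 library.

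Library totals were inferred from the RPKM values, as the sizes at which these give whole reads. The totals were 14903547 and 14091412 reads with HDACi 4b and 14143248 and 13478189 reads with DMSO. So 3 reads, taken as the one-sided limit of a count of 0, equal 0.201 to 0.223 CPM (reads scaled to library size). Intervals from reads are exact Poisson intervals with 95% between both bounds, whose upper bound at 0 reads is higher, at 3.69 reads, and all limits cover counting error only. Oocyte markers were abundant, with 17 of 18 at 1 RPKM or more and a summed level of 23746 and 26050 RPKM with HDACi 4b and of 28716 and 23460 RPKM with DMSO. Blood and immune markers were also found, and 7 of the 12 measured reached 1 RPKM. Their summed level was 213 and 67.5 RPKM in HDACi 4b libraries 1 and 2, against 125 and 77.5 RPKM in DMSO libraries 1 and 2, so the replicates of a group differed more than the groups did. Of 6 endothelial markers 2 reached the limit (Pecam1 and Tek), and the 6 summed to 2.58 and 2.65 RPKM with HDACi 4b and 2.60 and 3.03 RPKM with DMSO. Of 6 surface epithelium markers, Krt8 and Krt18 reached the limit. The 6 summed to 1.22 and 5.38 RPKM with HDACi 4b and 6.67 and 8.92 RPKM with DMSO. The endothelial and surface epithelium counts lay near the share of all rows, of which 64.5% were under 1 RPKM. The keratin Krt18 stood at 0.144 and 3.80 RPKM with HDACi 4b and at 5.20 and 6.41 RPKM with DMSO. Krt8 had 0.186 and 1.49 RPKM with HDACi 4b and 1.29 and 2.34 RPKM with DMSO, so its groups overlapped. Upk1b was highest in HDACi 4b library 1, at 0.83 and 0.040 RPKM with HDACi 4b and 0.080 and 0 RPKM with DMSO. Krt19, Upk3b and Msln were at most 0.13 RPKM. In bulk RNA, fewer cells of a type and less RNA per cell cannot be told apart.

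Against the oocyte's own secreted factors the members were modest. Gdf9 had 743 and 617 RPKM in HDACi 4b oocytes and 815 and 557 RPKM in DMSO oocytes. Bmp15 had 485 and 674 RPKM in HDACi 4b oocytes and 497 and 540 RPKM in DMSO oocytes. The most abundant member, Serpine2, was below Gdf9 by a factor of 14.5 and 15.0 in the HDACi 4b libraries and of 14.6 and 11.3 in the DMSO libraries. Inha was below it by a factor of 3265 and 12830 in the HDACi 4b libraries and of 4251 and 5536 in the DMSO libraries. By mean level, Serpine2 ranked 1054 from the top of all rows, Esr2 1922, Cyp19a1 5906, Nr5a2 6241 and Kitl 7535. The median row of the table was at 0.308 RPKM, and only Dcn, Fshr and Gatm of the 31 low members lay above it.

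**Figure D2:**
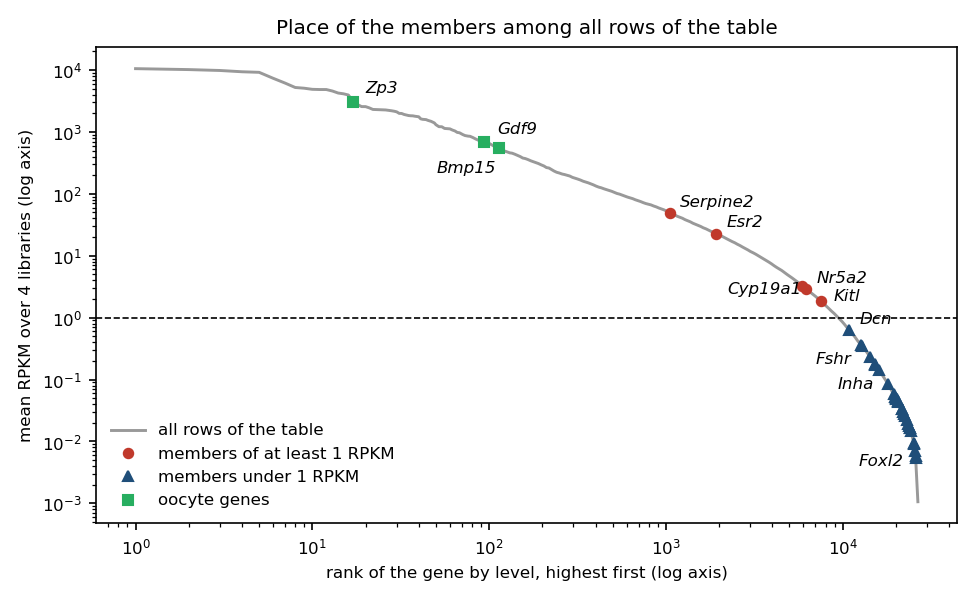
Mean RPKM over the 4 libraries (vertical, log axis) against rank among all 26631 rows (horizontal, log axis), with the 5 members of at least 1 RPKM as circles, the 31 others as triangles and 3 oocyte genes as squares. Serpine2 at rank 1054 is the highest member, well below the oocyte genes Zp3, Gdf9 and Bmp15, and the triangles crowd the lower end of the curve.

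HDACi 4b oocytes and DMSO oocytes did not differ detectably in any of the 5 members that could be tested. None of the 5 was called by limma at a Benjamini-Hochberg adjusted p under 0.05, and 0 of the 9461 genes tested was called (0%). At an unadjusted p under 0.05 there were 0 of the 5 members, against 2.83% of all tested genes (136 higher and 132 lower), and voom, limma's method on recovered reads, also gave 0 calls, with 103 genes higher and 120 lower at that level. Each member's 95% interval of the fold lay wholly within 2-fold in either direction, as it did for 81.2% of all tested genes. Of the 5 log2 fold changes 3 were positive and 2 negative, with a median of 0.05, against a median of -0.0013 over all tested genes. A change smaller than these intervals could not have been seen with 2 libraries a group.

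Groups could also be compared by eye, library by library. In RPKM as deposited, the HDACi 4b and DMSO libraries overlapped for all 5 members, and 0 of 5 were apart, while 23.4% of tested genes were apart. After scaling of the libraries for composition, as used in the fit, 2 of the 5 were apart, against 28.1% of tested genes. These were Esr2, lower with HDACi 4b, and Cyp19a1, higher with HDACi 4b, both by less than 1 SE of the fit.

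**Figure D3:**
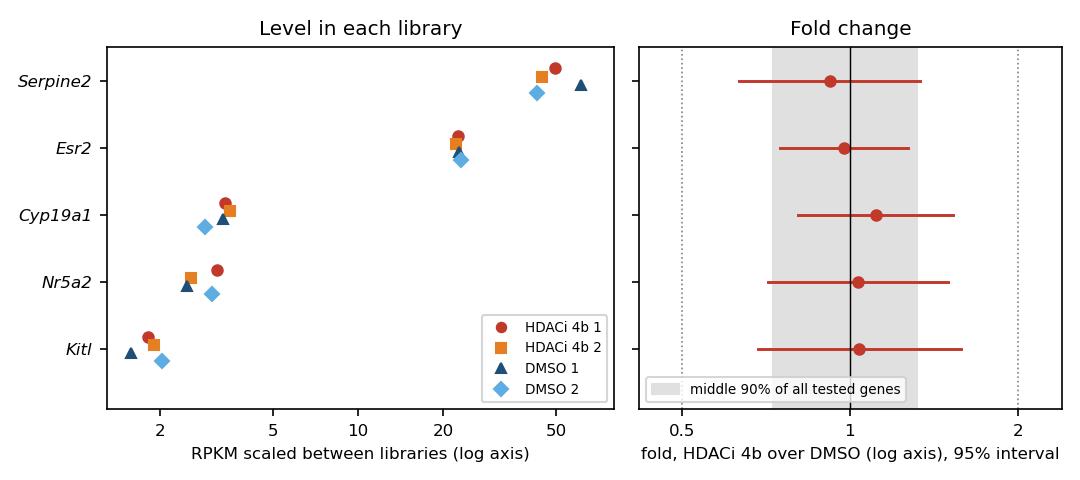
Left, RPKM scaled between libraries (log axis) of the 5 tested members in the 4 libraries. Right, fold of HDACi 4b over DMSO (log axis) as a point with its 95% interval, dotted lines at 0.5 and 2 and a gray band from 0.729 to 1.32 that holds the middle 90% of folds of all tested genes. All 5 points lie inside the band and all 5 intervals lie between the dotted lines.

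Among the transcription factors and nuclear receptors of the set, Esr2 and Nr5a2 were expressed and Pgr, Wt1 and Foxl2 were not measurable. Esr2 (chromosome 12, 76120419 to 76177259, minus strand, GRCm38), the estrogen receptor beta of granulosa cells, had 23.2 and 20.4 RPKM in HDACi 4b oocytes, against 20.7 and 26.4 RPKM in DMSO oocytes. The DMSO libraries enclosed the HDACi 4b pair but for HDACi 4b library 2, which was the lowest of the 4 by a small margin. The means were 21.8 ± 2.02 RPKM with HDACi 4b and 23.6 ± 4.04 RPKM with DMSO (SD, n = 2 each). After scaling the 4 values of Esr2 were 22.6 and 22.1 RPKM with HDACi 4b and 22.7 and 23.0 RPKM with DMSO, the closest agreement of the 5 genes. The fold was 0.976 with a 95% interval of 0.751 to 1.27 (limma, log2 -0.03, SE 0.16, adjusted p = 1.0), from 968 to 1200 reads per library.

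Nr5a2 (chromosome 1, 136842571 to 136960448, minus strand), an orphan nuclear receptor that granulosa cells need for ovulation and luteinization, had 3.26 and 2.38 RPKM in HDACi 4b oocytes, against 2.27 and 3.52 RPKM in DMSO oocytes. Replicates of each group lay farther apart than the group means of 2.82 ± 0.624 RPKM with HDACi 4b and 2.89 ± 0.888 RPKM with DMSO. Its fold was 1.03 with an interval of 0.714 to 1.50 (limma, log2 0.05, SE 0.22, adjusted p = 1.0). The sign of this difference turned without scaling, at a log2 value of -0.02.

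The other members of this role were traces. Pgr, the progesterone receptor that granulosa cells gain at ovulation, had 2 and 1 reads with HDACi 4b and 2 and 3 reads with DMSO. Wt1, a zinc finger factor of early granulosa cells, had 0 and 0 reads with HDACi 4b and 1 and 1 reads with DMSO. Foxl2, the forkhead factor that maintains granulosa identity, had 0 reads in both HDACi 4b libraries and 1 and 0 reads in the DMSO libraries. Foxl2 thus had a single read among 4 libraries, as Ptx3 did, with an upper counting limit of 0.394 CPM in the library that held it. By mean RPKM it was the lowest member with a row. Foxl2 shares 12 exonic bases with Foxl2os on the opposite strand, and the strand setting of the counting is not given in the sources used here.

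The 100 bases before each annotated start of Esr2 and Cyp19a1 are given below. Cyp19a1 is known for using different first exons in different tissues, and Esr2 is given with a single start. The sequences are from RefSeq on GRCm38.p6, 5′ to 3′ on the minus strand, which is the strand of both genes, and capitals mark a TATA box (TATAAA). RefSeq gave 3 starts for Cyp19a1 and 1 for Esr2.
Esr2 start, chr12:76177260-76177359: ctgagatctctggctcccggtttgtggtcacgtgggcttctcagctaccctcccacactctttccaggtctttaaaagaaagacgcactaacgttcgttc
Cyp19a1 outermost start, chr9:54268165-54268264: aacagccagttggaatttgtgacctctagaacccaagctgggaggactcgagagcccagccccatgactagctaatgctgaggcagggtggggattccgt
Cyp19a1 middle start, chr9:54228915-54229014: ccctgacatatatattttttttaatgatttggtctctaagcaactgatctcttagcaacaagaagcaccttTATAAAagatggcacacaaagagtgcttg
Cyp19a1 innermost start, chr9:54193744-54193843: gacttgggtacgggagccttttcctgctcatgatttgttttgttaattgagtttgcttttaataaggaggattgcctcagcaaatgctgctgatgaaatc

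Among these 4 windows TATAAA was found in the middle Cyp19a1 start alone, at position -29 from the start, with an overlapping match on the opposite strand. Over all 32851 RefSeq windows of this length, 3.8% held it on the sense strand and 5.56% on either strand. The RPKM of Cyp19a1 is a sum over its exons and does not tell which of the 3 starts was used. Likewise, the RPKM of Esr2 does not tell where its transcripts began in these oocytes.

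In steroid synthesis, aromatase was the single member of 5 that was expressed. Cyp19a1 (chromosome 9, 54165937 to 54268110, minus strand), the aromatase that turns androgens into estrogens, had 3.49 and 3.26 RPKM in HDACi 4b oocytes, against 3.03 and 3.31 RPKM in DMSO oocytes. The groups overlapped narrowly, with HDACi 4b library 2 just under DMSO library 2. Means were 3.38 ± 0.158 RPKM with HDACi 4b and 3.17 ± 0.199 RPKM with DMSO (SD, n = 2 each). The fold was 1.11 with an interval of 0.809 to 1.53 (limma, log2 0.15, SE 0.19, adjusted p = 1.0), from 194 to 235 reads per library. It was the largest fold of the 5 members away from 1.

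The other 4 members of this role were all under 0.5 RPKM. Star, which carries cholesterol into mitochondria, had 0.131 and 0.276 RPKM in HDACi 4b oocytes and 0.206 and 0.325 RPKM in DMSO oocytes, from 8 and 16 reads with HDACi 4b and 12 and 18 reads with DMSO. Cyp11a1, which cleaves the cholesterol side chain, had 2 and 0 reads with HDACi 4b and 1 and 1 reads with DMSO. Its exons share 145 bases on the same strand with Gm17322, which was listed at 0.526 and 0.720 RPKM with HDACi 4b and 0.913 and 0.992 RPKM with DMSO, so even these reads are uncertain. Androgen synthesis was no better represented. Cyp17a1, the theca enzyme that makes androgens, was listed at 0 in both HDACi 4b libraries and at 0.0653 and 0.0685 RPKM in the DMSO libraries. Hsd17b1, which reduces estrone to estradiol in granulosa cells, had 1 and 0 reads with HDACi 4b and 3 and 0 reads with DMSO. Cyp19a1 was above Star, Cyp11a1, Cyp17a1 and Hsd17b1 in each of the 4 libraries.

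Of 20 other genes of steroid synthesis and sterol transport, 18 had a row and 8 were tested, of which 0 passed in either direction, with 2 positive and 6 negative log2 fold changes and a median of -0.07. Fdx1, the ferredoxin that feeds electrons to CYP11A1, had 10.9 and 9.90 RPKM with HDACi 4b and 10.5 and 12.5 RPKM with DMSO. Hsd17b12, a reductase of fatty acid elongation that can also act on estrone, had 9.59 and 7.14 RPKM with HDACi 4b and 9.78 and 14.0 RPKM with DMSO. Its log2 fold change of -0.42 (SE 0.18) had the smallest p of the list and an adjusted p of 1.0 by limma, with both HDACi 4b libraries under both DMSO libraries. Of 12 other steroid receptors and cofactors, 6 were tested and 0 passed in either direction, with 5 positive and 1 negative log2 fold changes and a median of 0.03. Pgrmc1, a heme protein of the membrane linked to progesterone responses, had 27.9 and 28.0 RPKM with HDACi 4b and 25.5 and 50.6 RPKM with DMSO, where DMSO library 2 stood alone. Its log2 fold change was -0.29 (SE 0.25, limma adjusted p = 1.0), with the smallest p of its list. Ncoa3, a coactivator of nuclear receptors, had 7.71 and 10.2 RPKM with HDACi 4b and 10.4 and 7.95 RPKM with DMSO.

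The receptors by which follicle cells sense gonadotropins were traces. Fshr (chromosome 17, 88984952 to 89200675), the receptor of follicle stimulating hormone, had 0.226 and 0.444 RPKM in HDACi 4b oocytes and 0.408 and 0.357 RPKM in DMSO oocytes. These levels rested on 7 and 13 reads with HDACi 4b and 12 and 10 reads with DMSO, whose counting intervals all overlapped. Lhcgr, the receptor of luteinizing hormone, was listed at 0.0788 and 0 RPKM with HDACi 4b and at 0.0831 and 0.0291 RPKM with DMSO. The reads behind Lhcgr, and likewise Fst, Acta2, Cyp17a1 and Amhr2, could not be settled from the values, so those genes are given in RPKM alone.

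Inhibin, activin, follistatin and the AMH receptor were low as well. Inha (chromosome 1, 75507077 to 75510366), the inhibin alpha subunit and among the most abundant transcripts of granulosa cells, had 0.227 and 0.0481 RPKM in HDACi 4b oocytes and 0.192 and 0.101 RPKM in DMSO oocytes, which was 12 reads in all. Replicate 1 was the higher library in both groups, and the 4 counting intervals overlapped. Inhba, the activin subunit, had 2 and 3 reads with HDACi 4b and 0 and 2 reads with DMSO. Fst, the follistatin that binds activin, was listed at 0.0398 and 0.0210 RPKM with HDACi 4b and at 0.0419 and 0 RPKM with DMSO. Amhr2, the receptor of anti-Müllerian hormone, was listed at 0.0709 RPKM in HDACi 4b library 2 and at 0 in HDACi 4b library 1 and both DMSO libraries.

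The ratio of Cyp19a1 to Inha, both of them granulosa cell transcripts, was 15.3 and 67.9 in the HDACi 4b libraries and 15.8 and 32.9 in the DMSO libraries, in RPKM over RPKM. It varied with the 1 to 5 reads of Inha per library. Inha, Foxl2, Cyp11a1 and Fshr were at 0.444 RPKM or less in every library, below the 5 expressed members. Other granulosa transcripts were higher, since Esr2 and Cyp19a1 are among those 5. Of the 18 other granulosa and cumulus markers with a row, 7 averaged 1 RPKM or more. This was near the share of all rows, of which 64.5% lay under 1 RPKM. Granulosa libraries were not analysed here, so the ratio in those cells is not given, and the cell of origin of the 5 transcripts was not tested.

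Of 23 other genes of activin, inhibin, AMH and follistatin signaling, 10 were tested and 0 passed in either direction, with 8 positive and 2 negative log2 fold changes and a median of 0.05. Bmpr1b, a type I receptor of bone morphogenetic proteins, had 24.7 and 27.4 RPKM with HDACi 4b and 20.9 and 28.6 RPKM with DMSO. Smad2, which carries activin signals to the nucleus, had 16.2 and 13.0 RPKM with HDACi 4b and 13.7 and 16.0 RPKM with DMSO. Bmpr2, the type II receptor of BMP15, had 7.64 and 6.91 RPKM with HDACi 4b and 5.62 and 7.01 RPKM with DMSO, and had the smallest p of the list (log2 0.28, SE 0.16, limma adjusted p = 1.0). After scaling, Bmpr2 was at 7.41 and 7.48 RPKM with HDACi 4b and 6.16 and 6.09 RPKM with DMSO, apart as were 28.1% of tested genes. In RPKM as deposited, the groups overlapped for Bmpr1b, Smad2 and Bmpr2. These 3 genes stood above most of their list, whose 23 genes had a median of 0.706 RPKM, with 7 of them under 0.1 RPKM.

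Of the C-type natriuretic peptide system and KIT ligand, Kitl was expressed. Kitl (chromosome 10, 100015630 to 100100416, plus strand), the ligand by which granulosa cells drive oocyte growth through KIT, had 1.87 and 1.76 RPKM in HDACi 4b oocytes, against 1.44 and 2.33 RPKM in DMSO oocytes. Both HDACi 4b libraries lay between the DMSO libraries. The means were 1.82 ± 0.0765 RPKM with HDACi 4b and 1.89 ± 0.636 RPKM with DMSO (SD, n = 2 each), and the fold was 1.04 with an interval of 0.684 to 1.58 (limma, log2 0.06, SE 0.25, adjusted p = 1.0). It was the widest interval of the 5, from 120 to 186 reads per library, and without scaling the log2 value was -0.01.

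Nppc, the precursor of C-type natriuretic peptide that keeps the oocyte in meiotic arrest, had 1 and 0 reads with HDACi 4b and 0 and 1 reads with DMSO. Npr2, the guanylyl cyclase of cumulus cells that binds this peptide, had 8 and 0 reads with HDACi 4b and 2 and 2 reads with DMSO. Most of its reads came from HDACi 4b library 1, but the counting intervals of its libraries overlapped. Of 8 other genes of natriuretic peptide and KIT signaling, 7 had a row and 2 were tested, with 1 positive and 1 negative log2 fold change, a median of -0.08 and 0 calls. Prkg1, the kinase that cyclic GMP activates, had 11.7 and 10 RPKM with HDACi 4b and 11.4 and 15.8 RPKM with DMSO (log2 -0.24, SE 0.16, limma adjusted p = 1.0). Kit, the receptor of KIT ligand on the oocyte, had 7.32 and 6.12 RPKM with HDACi 4b and 5.48 and 7.94 RPKM with DMSO. Receptor and ligand were thus both measured in these libraries, Kit above Kitl in each of the 4.

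Among the transcripts of cumulus transport and metabolism, Serpine2 was the most abundant of all members. Serpine2 (chromosome 1, 79794197 to 79861180, minus strand), also called protease nexin 1, is a secreted inhibitor of thrombin and plasminogen activators that cumulus cells are known to make. It had 51.1 and 41.2 RPKM in HDACi 4b oocytes, against 55.7 and 49.1 RPKM in DMSO oocytes, from 4810 to 6525 reads per library. HDACi 4b library 2 was the lowest and DMSO library 1 the highest, and HDACi 4b library 1 lay between the DMSO libraries. The means were 46.2 ± 7.02 RPKM with HDACi 4b and 52.4 ± 4.64 RPKM with DMSO (SD, n = 2 each). The fold was 0.921 with an interval of 0.634 to 1.34 (limma, log2 -0.12, SE 0.22, adjusted p = 1.0). Without DMSO library 1 its log2 value was 0.14, so a single library set the sign, as it did for Kitl and Nr5a2 (-0.12 and -0.10 without DMSO library 1). Nr5a2 also turned without HDACi 4b library 1, at -0.09.

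Gatm, which makes the creatine precursor guanidinoacetate, was the member whose replicates disagreed most visibly. It had 0.805 and 0.0473 RPKM in HDACi 4b oocytes and 0.471 and 0.0742 RPKM in DMSO oocytes, from 36 and 2 reads with HDACi 4b and 20 and 3 reads with DMSO. Replicate 1 was high and replicate 2 low in both groups, and the counting intervals of the high and the low libraries did not meet. The macrophage lysozyme Lyz2 stood in the same order, with 29.4 and 6.69 RPKM with HDACi 4b and 16.7 and 9.42 RPKM with DMSO, as did the summed immune markers given above. Ptprc, the leukocyte antigen CD45, had 0.205 and 0.0349 RPKM with HDACi 4b and 0.0772 and 0.0324 RPKM with DMSO. Cd14, a monocyte receptor, did not follow, at 1.15 and 1.04 RPKM with HDACi 4b and 1.98 and 2.50 RPKM with DMSO. Lyz2 and Ptprc were named here because they move with Gatm, so the shared order is not a separate observation. The granulosa gene Inha stood in the order of Gatm too, from 12 reads in all. It had 0.227 and 0.0481 RPKM with HDACi 4b and 0.192 and 0.101 RPKM with DMSO. The part of immune cell RNA in the level of Gatm was not tested. Slc38a3, the amino acid transporter by which cumulus cells take up substrates for the oocyte, had 3 and 2 reads with HDACi 4b and 0 and 0 reads with DMSO, where the limit of 3 reads is 0.212 and 0.223 CPM.

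The genes that cumulus cells switch on as they expand were all traces. Ptgs2, the cyclooxygenase that makes prostaglandin, had 0.132 and 0.139 RPKM in HDACi 4b oocytes and 0.232 and 0.211 RPKM in DMSO oocytes. Both HDACi 4b libraries lay under both DMSO libraries, from 9 and 9 reads with HDACi 4b and 15 and 13 reads with DMSO, but the 4 counting intervals overlapped. Has2, the synthase of hyaluronan, had 3 and 4 reads with HDACi 4b and 5 and 2 reads with DMSO. Tnfaip6, which ties hyaluronan into the matrix, had 1 and 0 reads with HDACi 4b and 4 and 0 reads with DMSO. Ptx3, the pentraxin of the same matrix, had 1 read, in DMSO library 2. All 3 genes of hyaluronan matrix assembly were thus within 5 reads in every library. Adamts1, a protease that cleaves versican, had 2 and 4 reads with HDACi 4b and 4 and 3 reads with DMSO. Vcan, versican itself, had 1 and 3 reads with HDACi 4b and 3 and 17 reads with DMSO, so DMSO library 2 stood apart from the rest.

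Of 20 other genes of cumulus expansion and ovulation, 16 had a row and 3 were tested, with 3 positive log2 fold changes, a median of 0.23 and 0 calls. Egfr, the receptor of the EGF-like factors that start expansion, had 5.46 and 5.24 RPKM with HDACi 4b and 4.04 and 4.72 RPKM with DMSO, with both HDACi 4b libraries above both DMSO libraries and the smallest p of the list (log2 0.35, SE 0.17, limma adjusted p = 1.0). Ctsl, a lysosomal protease, had 1.70 and 0.842 RPKM with HDACi 4b and 1.21 and 1.27 RPKM with DMSO. Of 19 other granulosa and cumulus markers, 18 had a row and 7 were tested, with 4 log2 fold changes above 0 and 3 below it, a median of 0.04 and 0 calls. The highest were Fdx1, given above, and Slc18a2, a vesicular monoamine transporter, at 7.55 and 8.75 RPKM with HDACi 4b and 6.99 and 9.36 RPKM with DMSO. Cdh2, the N-cadherin, had the smallest p, at 1.59 and 0.801 RPKM with HDACi 4b and 1.31 and 3.17 RPKM with DMSO (log2 -0.73, SE 0.42, limma adjusted p = 1.0).

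No member of the stroma, smooth muscle and mesenchyme role reached 1 RPKM. Dcn (chromosome 10, 97479609 to 97518143), the proteoglycan decorin, was the highest of the 8 measured, with 0.965 and 0.401 RPKM in HDACi 4b oocytes and 0.509 and 0.661 RPKM in DMSO oocytes. HDACi 4b library 1, with 84 reads, was above the others, which held 33 reads in HDACi 4b library 2 and 42 and 52 reads in the DMSO libraries. The library with the most reads was not the same for every stroma gene. Vim, the intermediate filament of mesenchyme, had 11 and 3 reads with HDACi 4b and 2 and 30 reads with DMSO. Col1a1, a chain of type I collagen, had 0.0102 and 0.0216 RPKM in HDACi 4b oocytes and 0.0108 and 0.0678 RPKM in DMSO oocytes, from 1 and 2 reads with HDACi 4b and 1 and 6 reads with DMSO. Col3a1, the chain of type III collagen, had 1 and 1 reads with HDACi 4b and 0 and 10 reads with DMSO. Vim, Col1a1 and Col3a1, and Vcan of the cumulus expansion role, were highest in DMSO library 2, though the counting intervals of Col1a1 overlapped. Of the 31 low members, 11 were highest in DMSO library 2, these among them, and 9 in HDACi 4b library 1. These counts are in RPKM as deposited, and the share of all low rows that peaked in each library was not counted. DMSO library 2 also had the most genes of the whole table at 1 RPKM. It had 10027, against 9015 in DMSO library 1 and 9604 and 9033 with HDACi 4b.

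Col1a2, the other chain of type I collagen, had 5 and 1 reads with HDACi 4b and 1 and 0 reads with DMSO. Lum, the proteoglycan lumican, had 5 and 0 reads with HDACi 4b and 1 and 1 reads with DMSO. Pdgfra, the growth factor receptor of fibroblasts and theca precursors, had 0 and 1 reads with HDACi 4b and 0 and 4 reads with DMSO. None of these was above 5 reads in any library. Acta2, smooth muscle actin, was listed at 0.264 and 0 RPKM with HDACi 4b and at 0.0397 and 0.0417 RPKM with DMSO, and reads of so conserved a gene family may be shared with other actins. Col1a2, Lum and Acta2 were, like Dcn, highest in HDACi 4b library 1. Of 21 other theca and stroma markers, 18 had a row and 2 were tested, with 2 positive log2 fold changes, a median of 0.44 and 0 calls. Myh11, the smooth muscle myosin heavy chain, had 2.995 and 3.39 RPKM with HDACi 4b and 2.94 and 3.55 RPKM with DMSO. Sparc, a matrix protein, had 3.61 and 0.843 RPKM with HDACi 4b and 1.44 and 0.666 RPKM with DMSO (log2 0.84, SE 0.69, limma adjusted p = 1.0), again with HDACi 4b library 1 highest.

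**Figure D4:**
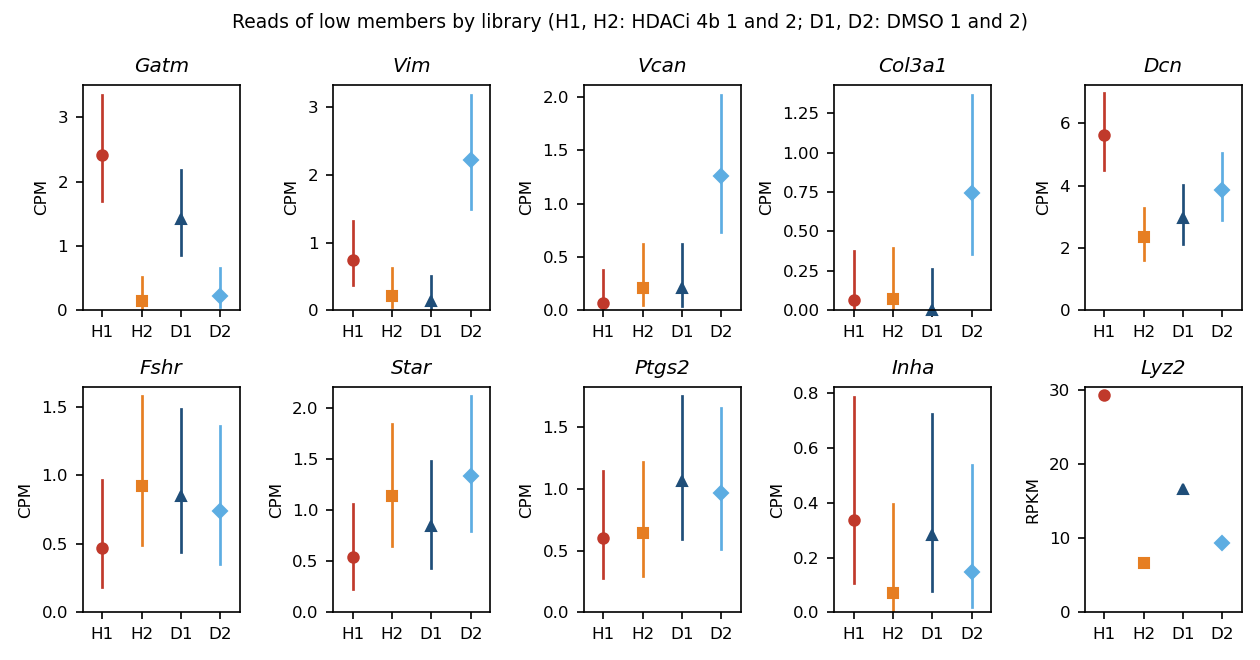
Reads scaled to library size (CPM, linear axes from 0) of 9 low members in HDACi 4b libraries 1 and 2 (H1, H2) and DMSO libraries 1 and 2 (D1, D2) with exact 95% Poisson intervals, and RPKM of Lyz2 in the last panel. Gatm is high in H1 and D1 as Lyz2 is, Vim, Vcan and Col3a1 are highest in D2, Dcn is highest in H1, and the intervals of Fshr, Star, Ptgs2 and Inha overlap in all 4 libraries.

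The 31 low members gave no call either. When all 26631 rows were tested without a limit on level, 0 members were called at an adjusted p under 0.05, as was 0% of all rows, and 1 of the 36 had an unadjusted p under 0.05 (3.1% of all rows did). That gene was Cyp17a1, at 0 in both HDACi 4b libraries (limma, unadjusted p = 0.0493). With no limit, 15 members had log2 fold changes above 0 and 21 below it, and their median was -0.09, against 0.0025 over all rows. In RPKM, HDACi 4b and DMSO libraries were apart for 6 of the 31 (Ptgs2, Cyp17a1, Pgr, Slc38a3, Col1a2 and Wt1), and 20.2% of all rows under 1 RPKM were apart. Both counts of members lay near these backgrounds.

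Counting error did not cover the spread between libraries for some low members, at a share near that of all rows. Among the 13 low members with at least 10 settled reads, the counting intervals of some pair of libraries were apart for 5 (Dcn, Gatm, Vim, Vcan and Col3a1), and so they were for 36% of the 7868 rows of that kind. Of the 5, Dcn and Gatm peaked in HDACi 4b library 1 and Vim, Vcan and Col3a1 in DMSO library 2. The 8 low stroma genes summed to 7.65 and 2.91 CPM with HDACi 4b and 3.39 and 7.72 CPM with DMSO. The 23 low genes of follicle cell roles summed to 6.44 and 4.33 CPM with HDACi 4b and 6.79 and 6.08 CPM with DMSO. All 31 together thus held 14.1 and 7.24 CPM with HDACi 4b and 10.2 and 13.8 CPM with DMSO, against 548 and 449 CPM with HDACi 4b and 567 and 546 CPM with DMSO in the 5 expressed members. Genes of unsettled reads enter these sums with the likeliest of the reads that their values allow.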

How the data were processed

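RNA-seq of denuded oocytes (HDACi 4b, n = 2, and DMSO, n = 2) was analysed from 1 table. The authors deposited RPKM values, with 26631 rows and 4 columns of values (0 unused). Bowtie 0.12.2 and mm8 are named in the submitters' processing notes. How reads were counted, and whether by strand, is not given in the sources used here. Rows were matched by name to GENCODE M21, an annotation of GRCm38 (24920 matched), and 22543 rows (84.6%) gave whole reads at M21 exon lengths (tolerance 1e-05 reads). Another 4088 rows came from ratios between libraries. Coordinates are therefore those of M21, and no mm8 coordinates were used. The recovered reads summed to 99.81% to 99.83% of the library totals. Those totals were themselves inferred from the smallest steps of the RPKM values at M21 exon lengths. For 2298 rows, 5 members among them, the multiple of reads was not settled.

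Libraries were scaled by trimmed means of read ratios (30% of ratios and 5% of levels trimmed), with divisors of 1.03 and 0.925 for HDACi 4b and 0.911 and 1.15 for DMSO. limma 3.58.1 in R 4.3.3 with an intensity trend was fitted to log2(RPKM + 0.1) of genes averaging 1 RPKM or more, two-sided, with Benjamini-Hochberg adjustment over 9461 genes. Folds are on that scale and understate changes of low genes. No exact permutation test was made, since 2 against 2 libraries allow no p under 0.333.

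The members and all gene lists were chosen with earlier results of these data known. Named were all members, and of each list of other genes the 2 with the highest mean and the one with the smallest p. The oocyte, immune, endothelial and surface epithelium lists were given by counts and sums, with only some of their genes named. Gdf9, Bmp15 and Zp3 were named for scale. Lyz2 and Ptprc were named beside Gatm, and Krt18 for the surface epithelium, as markers that move with those results. Cd14 and the surface epithelium markers other than Krt18 were named after their values were seen. Alternatives were other scalings, pseudocounts and limits, voom, the replicate number as a block, and each library left out. Promoter windows were 100 bases from RefSeq, and those overlapping an M21 exon (Serpine2, Kitl) or not needed here were not printed.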

Additional observations from a re-analysis of the deposited data

How the results depend on the processing

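No alternative called a member: over 62 fold values of the 5 tested members under alternatives the lowest limma adjusted p was 0.917 and the largest log2 size 0.36, and 56 of the 62 kept their sign. The sign turned without scaling for Nr5a2 (-0.02) and Kitl (-0.01), where the median of all genes moved by -0.07. It also turned when libraries were left out. Leaving out each library in turn gave log2 values of -0.36 to 0.14 for Serpine2, -0.10 to 0.21 for Nr5a2 and -0.12 to 0.25 for Kitl. The values of the other sign were those without DMSO library 1 (Serpine2 0.14, Nr5a2 -0.10, Kitl -0.12) and, for Nr5a2, without HDACi 4b library 1 (-0.09). Over all genes, leaving out a library gave 0 to 3 calls, which were 1 lower gene without HDACi 4b library 1 (Hist1h2bk) and 3 lower genes without HDACi 4b library 2 (Krt18, Calcoco2 and Gm22107), none a member and named after their values were seen. The lone library was then assumed to vary like the other group, and the cause was not tested.

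With the replicate number as a block there were 0 calls (at unadjusted p below 0.05, 165 genes were higher and 166 lower). The deviations of same-numbered libraries correlated by 0.045 over 9461 genes, so the numbers were not taken as pairs. A limit of 5 RPKM left values for Serpine2 and Esr2 alone. Depth limits the 31 low members, of which 14 had at most 10 settled reads in all.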
